A study of Mus musculus with 8 samples.

Results

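The 33 genes described here are the immediate early genes and the genes that neuronal activity or growth factors induce, with some of their close relatives. They were listed by name, with earlier results of these data known, from the 21887 protein-coding genes that could be placed on the mouse genome. All 33 were found in the gene table. The readout, in whole cerebellum, was H3K9ac, the acetyl mark on lysine 9 of histone H3 that active promoters carry, measured by chromatin immunoprecipitation and sequencing. All mice were C57BL/6 at 9 weeks of age. One group of 4 libraries came from mice heterozygous for a 266Q knock-in, in which the mutant protein is made from its own locus and not from a transgene, and which were symptomatic. The other group of 4 libraries came from wild type littermates. The libraries are called KI1 to KI4 and WT1 to WT4 after their genotype and replicate number. The knock-in models spinocerebellar ataxia type 7, which follows expansion of a glutamine tract in ataxin-7, a subunit of the SAGA acetyltransferase complex. The labels do not say that the replicates of a genotype came from separate animals, so differences between libraries may be technical. The p-values of the limma test of widths measure the spread between libraries. Those of the exact tests rest on which libraries list a peak and measure no such spread. None of them can be taken to measure the spread between animals.

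Immediate early genes are transcribed within minutes of a stimulus, without new protein synthesis. In neurons, calcium entry and synaptic signalling reach them through the ERK kinases, the serum response factor (SRF) with its ternary complex partners, and CREB bound at cyclic AMP response elements. Many of their products are transcription factors (the AP-1, EGR, NR4A and Krüppel-like families), others act at the synapse (Arc, Homer1, BDNF), and the dual specificity phosphatases switch the inducing kinases off again. Their promoters are commonly held in an active or poised state before the stimulus.

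A gene was counted as having a peak in a library if a listed peak overlapped, by 1 bp or more, the stretch of 1 kb on either side of either end of the gene. KI1 to KI4 listed 10607, 11268, 5571 and 1266 peaks, and WT1 to WT4 listed 11409, 7735, 3249 and 1571. Replicates 1 and 2 of each genotype were long lists of broad peaks, with a median width of 1065 to 1246 bp. Replicates 3 and 4 were short lists of narrow peaks, with a median width of 132 to 148 bp. Comparisons gene by gene therefore rest mostly on replicates 1 and 2. The lists carry no read counts, so the depth behind a peak is unknown. Peaks were listed at 10 and 9 of 10 granule cell markers in KI1 and KI2, and at 10 and 8 in WT1 and WT2. Of 10 Purkinje cell markers it was 2 and 3 against 1 and 3, and 6, among them Pcp2, Car8 and Pvalb, had none in any list. Of these 10 markers, 1 had a peak in both long knock-in lists and neither long wild type list, and 0 had the reverse. Of 13 glial and vascular markers, 1 and 1 had a peak against 1 and 0 (Mbp, a myelin gene), and of 10 forebrain markers 2 and 1 against 1 and 1. In whole tissue, fewer cells of a type and less of the mark per cell cannot be told apart.

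The promoters of 8 members are shown because the results below turn on them: Dusp5 and Dusp1 had a peak over this stretch in every long list, Junb and Klf4 in knock-in lists only, Fos in 1 list, Npas4 at an internal start site, and Klf2 and Jund had their peak downstream of it. Each is the 250 bases before the RefSeq start site on GRCm38.p6, the assembly that mm10 names, written 5′ to 3′ on the strand of the gene. Capitals mark TGACG on either strand, the core of the cyclic AMP response element, and the CArG box bound by SRF.
Dusp5: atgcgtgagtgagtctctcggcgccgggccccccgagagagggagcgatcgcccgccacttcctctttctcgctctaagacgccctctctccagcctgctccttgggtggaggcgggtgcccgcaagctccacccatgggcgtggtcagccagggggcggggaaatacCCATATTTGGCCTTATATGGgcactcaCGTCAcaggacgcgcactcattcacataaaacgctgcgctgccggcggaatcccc
Dusp1: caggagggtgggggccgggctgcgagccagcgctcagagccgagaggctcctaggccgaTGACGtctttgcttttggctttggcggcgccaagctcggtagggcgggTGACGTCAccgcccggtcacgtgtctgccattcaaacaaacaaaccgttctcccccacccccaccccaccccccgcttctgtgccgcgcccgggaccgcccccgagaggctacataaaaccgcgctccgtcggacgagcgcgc
Junb: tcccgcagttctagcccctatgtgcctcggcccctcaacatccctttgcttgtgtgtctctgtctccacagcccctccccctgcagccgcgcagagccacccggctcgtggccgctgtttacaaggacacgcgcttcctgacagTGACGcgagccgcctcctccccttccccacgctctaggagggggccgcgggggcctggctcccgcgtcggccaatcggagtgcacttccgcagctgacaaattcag
Klf4: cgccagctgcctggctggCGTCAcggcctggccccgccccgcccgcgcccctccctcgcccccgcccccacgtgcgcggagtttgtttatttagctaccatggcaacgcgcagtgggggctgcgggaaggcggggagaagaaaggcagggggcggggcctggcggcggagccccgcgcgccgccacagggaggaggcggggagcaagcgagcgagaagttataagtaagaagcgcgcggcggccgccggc
Klf2: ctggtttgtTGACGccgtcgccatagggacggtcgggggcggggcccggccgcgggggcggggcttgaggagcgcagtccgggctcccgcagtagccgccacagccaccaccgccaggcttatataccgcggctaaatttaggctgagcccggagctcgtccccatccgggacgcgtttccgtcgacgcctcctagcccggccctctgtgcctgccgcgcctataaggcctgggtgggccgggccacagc
Fos: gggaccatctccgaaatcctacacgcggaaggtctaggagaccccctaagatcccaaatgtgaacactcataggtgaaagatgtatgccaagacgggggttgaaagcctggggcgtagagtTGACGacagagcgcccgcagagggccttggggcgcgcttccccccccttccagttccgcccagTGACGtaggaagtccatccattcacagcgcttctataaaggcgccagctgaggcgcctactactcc
Npas4: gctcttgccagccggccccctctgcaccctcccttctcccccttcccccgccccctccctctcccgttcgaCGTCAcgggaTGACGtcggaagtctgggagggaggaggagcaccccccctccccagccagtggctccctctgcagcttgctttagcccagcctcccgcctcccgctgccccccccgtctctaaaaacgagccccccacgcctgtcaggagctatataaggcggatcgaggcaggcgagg
Jund: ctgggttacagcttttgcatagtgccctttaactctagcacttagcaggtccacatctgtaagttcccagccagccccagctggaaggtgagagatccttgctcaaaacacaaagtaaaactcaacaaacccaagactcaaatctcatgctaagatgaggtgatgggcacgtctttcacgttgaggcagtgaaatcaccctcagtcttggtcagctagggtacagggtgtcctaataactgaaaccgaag
They lie at chr19:53528895-53529144, plus strand (Dusp5); chr17:26508473-26508722, minus strand (Dusp1); chr8:84978749-84978998, minus strand (Junb); chr4:55532476-55532725, minus strand (Klf4); chr8:72318812-72319061, plus strand (Klf2); chr12:85473640-85473889, plus strand (Fos); chr19:4989972-4990221, minus strand (Npas4); and chr8:70697489-70697738, plus strand (Jund). The Dusp5 stretch holds a pair of adjoining CArG boxes followed by 1 TGACG core. Dusp1 holds TGACG and, closer to the gene, the full palindrome TGACGTCA. Fos and Npas4 each hold TGACG at 2 places, Junb, Klf4 and Klf2 at 1, and Jund at none. Peaks covered all 250 bases of the Dusp5 and Dusp1 stretches in each of the 4 long lists. They covered 248 and 250 bases of the Junb stretch and all 250 of the Klf4 stretch in KI1 and KI2, and 0 bases of both in wild type. The Klf2 and Jund stretches were at 0 covered bases in all 8 lists.

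RefSeq promoters were at hand for 26 of the 33 members, and the stretch before a start site was searched on both strands for 8 motifs. A gene counted once if any of its start sites held the motif. The 26 members had 39 such stretches and the 17492 genes with an entry had 21263, so members had more stretches per gene to match. TGACG was present in 18 of the 26 (69.2%), against 22.6% of the 17492 genes with an entry and 31.5% of the 7902 of those with a peak in 1 or more lists. TGACGTCA, which contains TGACG, was present in 3 (11.5%; Maff, Btg2 and Dusp1), against 2.20% of genes and 3.32% of those with a peak. The CArG box was present in 2 (7.69%; Egr2 and Dusp5), against 1.60% and 1.19%. The EGR site GCGNGGGCG was present in 8 (30.8%), against 7.21% of genes and 12% of those with a peak. The GC box GGGCGG, which can overlap it, was present in 21 (80.8%), against 45.8% and 67.4%. The AP-1 site TGANTCA was present in 1 (3.85%; Bdnf), against 7.19% and 4.44%. TATAAA was present in 3 (11.5%), against 13.7% and 6.71%, and CCAAT in 10 (38.5%), against 39.5% and 38.5%. TGACG and the EGR and GC motifs contain CG. At the first listed start site of each gene, the members' stretches had a median of 20.5 CpG and 64.6% GC. The medians were 10 and 55.2% over all genes and 18 and 61.6% over genes with a peak. Motifs were counted at any start site, so the composition does not cover all of the stretches searched. The motif counts are matches of letters, with no measurement of binding.

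Most of the members carried H3K9ac in the cerebellum of both genotypes. Of the 33, 30 had a peak in 1 or more lists and 18 (54.5%) had one in all 4 long lists, against 22.9% of all protein-coding genes. None of the 33 had a peak in all 8 lists. In KI1 to KI4, 29, 25, 8 and 2 members had a peak, which is 87.9%, 75.8%, 24.2% and 6.06%. In WT1 to WT4 the numbers were 20, 19, 4 and 4, which is 60.6%, 57.6%, 12.1% and 12.1%. Both long knock-in lists thus lay above both long wild type lists, while the short lists overlapped. Over all genes the shares were 39.1%, 36.2%, 10.4% and 0.896% for KI1 to KI4 against 31.9%, 27.8%, 5.43% and 1.46% for WT1 to WT4, with the same order.

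**Figure D1:**
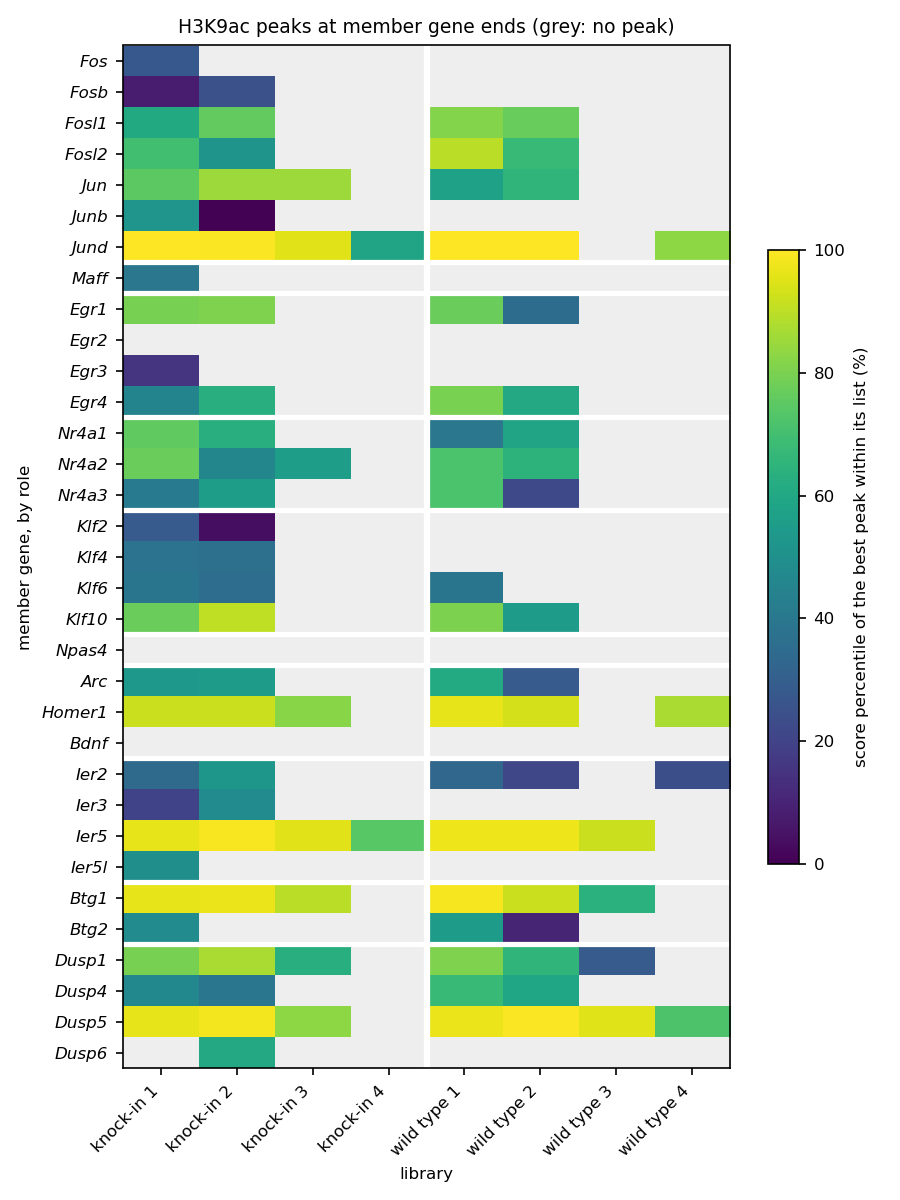
Best peak at each of the 33 members (rows) in each of the 8 libraries (columns, knock-in then wild type). Colour gives its percentile by score within its list, and grey marks no peak. Jund, Ier5 and Dusp5 have a peak in 7 libraries, and Egr2, Npas4 and Bdnf in none.

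In knock-in a mean of 48.5% ± 39.5 (SD, n = 4) of the members had a peak, and in wild type 35.6% ± 27.1 (SD, n = 4). The difference of 12.9 percentage points is smaller than these SDs, which span long and short lists, and over all genes the difference was 5.03 points. In replicates 1 and 2 the mean was 81.8% ± 8.57 against 59.1% ± 2.14 (SD, n = 2 each), a difference larger than either SD, with 37.7% against 29.8% over all genes. In replicates 3 and 4 it was 15.2% against 12.1%, with 5.65% against 3.44% over all genes. Leaving out 1 library leaves the genotypes with unequal numbers of long and short lists: the difference was then -0.253 points without KI1, 3.79 without KI2 and 27.0 without KI4, while over all genes it was -0.793, 0.178 and 12. When each list was shortened to its 1266 strongest peaks, the length of the shortest list, 0.758 points were left. Members had a peak in more knock-in than wild type libraries at 15 genes (21.6% of all genes did so) and in more wild type libraries at 3, Btg2, Ier2 and Dusp5 (5.23%). They were equal at 12. The remaining 3 members (9.09%) had no peak in any list, against 55.0% of all genes, and a gene without a peak cannot differ. Over genes with a peak, the knock-in side held 15 of 30 members and 4727 of 9851 genes. The wild type side held 3 and 1144.

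**Figure D2:**
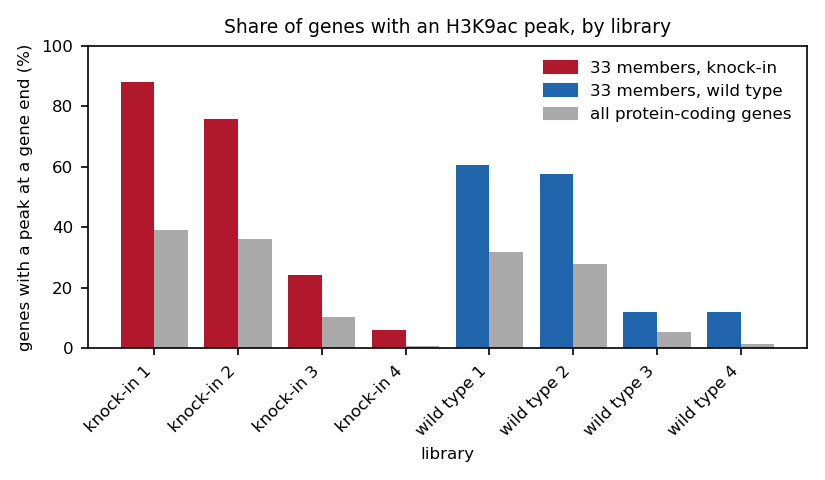
Percent of the 33 members and of all 21887 genes with a peak, by library. The members lie above all genes in each of the 8 libraries, and both fall from replicates 1 and 2 to replicates 3 and 4 in either genotype.

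No gene was called by the conditional exact test, which compares the genotypes at each gene given how many genes each library lists. With Benjamini-Hochberg adjustment 0 of 9826 genes passed (0%), with 90 at an unadjusted p under 0.05 and a smallest adjusted p of 0.743. Fisher's exact test called 0, with 0 at an unadjusted p under 0.05. Of the 30 members tested, 0 were called and 0 had an unadjusted p under 0.05. The smallest of them was p = 0.195 for Btg2, by the same exact test, with an adjusted p of 1.

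Among the AP-1 subunits, Jund, a widely expressed partner of the Fos proteins, ranked highest by score. Within 1 kb of the gene ends, its widest peak measured 2575, 2492, 374 and 96 bp in KI1 to KI4, and 1980, 1978 and 181 bp in WT1, WT2 and WT4, with none in WT3. The long knock-in lists were wider than the long wild type lists, and the short lists overlapped. Widths of single members here and below are as deposited. On that scale, both knock-in widths exceeded both wild type widths at 36.5% of the 5008 genes with a peak in all 4 long lists. Each gene is given the percentile of its best peak by the score that the authors' peak caller gave, within that list. The Jund peak stood at the 99.8 and 99.4 percentile of its list in KI1 and KI2 and at 99.8 in both long wild type lists. The best peak stood at 58.4 in KI4 and at 82.8 in WT4. In KI3 the best peak in the window was 192 bp wide and stood at 95.3, while the peak of 374 bp stood at 89.1. A further KI3 peak of 398 bp, at the 97.8 percentile, lay inside the gene and outside the window. The 96 bp in KI4 was the smallest such width of any member. The gene lies at chr8:70697739-70700616, and the peak began 585 and 663 bp downstream of the RefSeq start site in KI1 and KI2 and ran past the end of the gene. It also reached the window of the neighbouring gene Iqcn.

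Jun, the classical partner of Fos, had a peak of 2380, 3001 and 218 bp in KI1 to KI3, and of 886 and 1676 bp in WT1 and WT2. The long lists did not overlap between genotypes. It stood at the 74.9, 85.4 and 85.4 percentile in KI1 to KI3 and at 57.1 and 65.4 in WT1 and WT2. Fosl1 (Fra-1) measured 2430 and 2040 bp against 1301 and 1375 bp, and Fosl2 (Fra-2) 2394 and 1942 bp against 1701 and 1821 bp, again without overlap. The peak at Fosl1 was shared with the window of Ccdc85b. It covered 4.43% of Fosl1 in KI1 and 0% in KI2, WT1 and WT2, where it lay beyond the gene.

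Fosb and Junb had a peak in both long knock-in lists and in no wild type list. Junb (chr8:84976909-84978748, minus strand), a repressive AP-1 subunit in many settings, had a peak of 1883 and 741 bp that spanned its start site. It stood at the 52.1 percentile by score in KI1 but at 0.719 in KI2, the lowest of any member. The nearest wild type peaks lay 6675 and 6748 bp from the gene. Fosb, whose stable splice form builds up with repeated activity, differed in position: its peaks of 812 and 700 bp lay beyond the 3′ end of the gene, at the 7.54 and 24.8 percentile, and no list had a peak at its start site. Fos itself, at chr12:85473890-85477274, had peaks within its window in KI1 only. The widest measured 1018 bp, and the best by score, of 984 bp, stood at the 27.7 percentile. In WT2 a peak of 729 bp lay 169 bp beyond the Fos window. Maff, a small Maf protein without a transactivation domain, had 1 peak of 859 bp, in KI1.

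Of the EGR zinc finger factors, Egr1 and Egr4 had a peak in all 4 long lists, Egr3 in 1 and Egr2 in none. Egr1, which is induced by synaptic input across the brain, had the widest peak of any member, 4025 bp in KI1. It measured 2517 bp in KI2 and 2238 and 1093 bp in wild type, with no overlap. By score Egr1 stood at the 79.5, 80.5, 77.1 and 35.2 percentile of KI1, KI2, WT1 and WT2, with WT2 the lowest. Egr4 measured 1886 and 1479 bp against 1172 and 1162 bp, also without overlap. Egr3 had a peak of 903 bp in KI1 only, although peaks of 1446 and 1461 bp in KI2 and WT2 lay 406 and 306 bp outside its window. Egr2, better known from the hindbrain and from Schwann cells, had no peak at its gene ends in any list. At its internal start sites, peaks of 869 and 750 bp appeared in replicate 1 of knock-in and wild type.

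The NR4A receptors, orphan nuclear receptors that act without a known hormone, had a peak in all 4 long lists at each of the 3 genes. Nr4a1 measured 1055 and 1387 bp against 937 and 882 bp, at the upstream end of the gene. Its RefSeq start site lay inside the gene, at position 101266846 on chromosome 15. Within 1 kb of that site, peaks measured 1325 and 959 bp in KI1 and KI2 and 1313 bp in WT1. WT2 listed none there. Nr4a2 measured 1539, 1363 and 141 bp in KI1 to KI3 and 1096 and 1134 bp in wild type. At the gene ends, the deposited widths of Nr4a1 and Nr4a2 did not overlap between genotypes in the long lists. For Nr4a3 they did, with 1176 and 2076 bp against 1487 and 1245 bp.

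The Krüppel-like factors are zinc finger proteins that bind GC-rich promoters. Klf2, best known from endothelium and lymphocytes, and Klf4, best known from epithelium and stem cells, had a peak in both long knock-in lists and in no wild type list. The Klf4 peak (gene at chr4:55527137-55532475, minus strand) measured 1083 and 1782 bp, spanned the start site, and stood at the 38.2 and 37.0 percentile. The Klf2 peak (gene at chr8:72319062-72321654, plus strand) measured 1018 and 892 bp, began 182 and 313 bp downstream of the start site, and stood at the 28.6 and 3.57 percentile. In WT1 and WT2 no peak was nearer than 118292 and 176294 bp to Klf4, or 99089 and 98891 bp to Klf2. Of the endothelial markers, Cldn5 and Pecam1 had no peak in any list and Kdr had one in KI3 only. Klf6, a more widely expressed member, had 1044 and 900 bp in knock-in and 1339 bp in WT1 only. Klf10, induced by TGF-beta, was present in all 4 long lists with 1549 and 1345 bp against 2035 and 1430 bp, at the 77.2 and 90.4 percentile against 80.5 and 54.9.

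**Figure D3:**
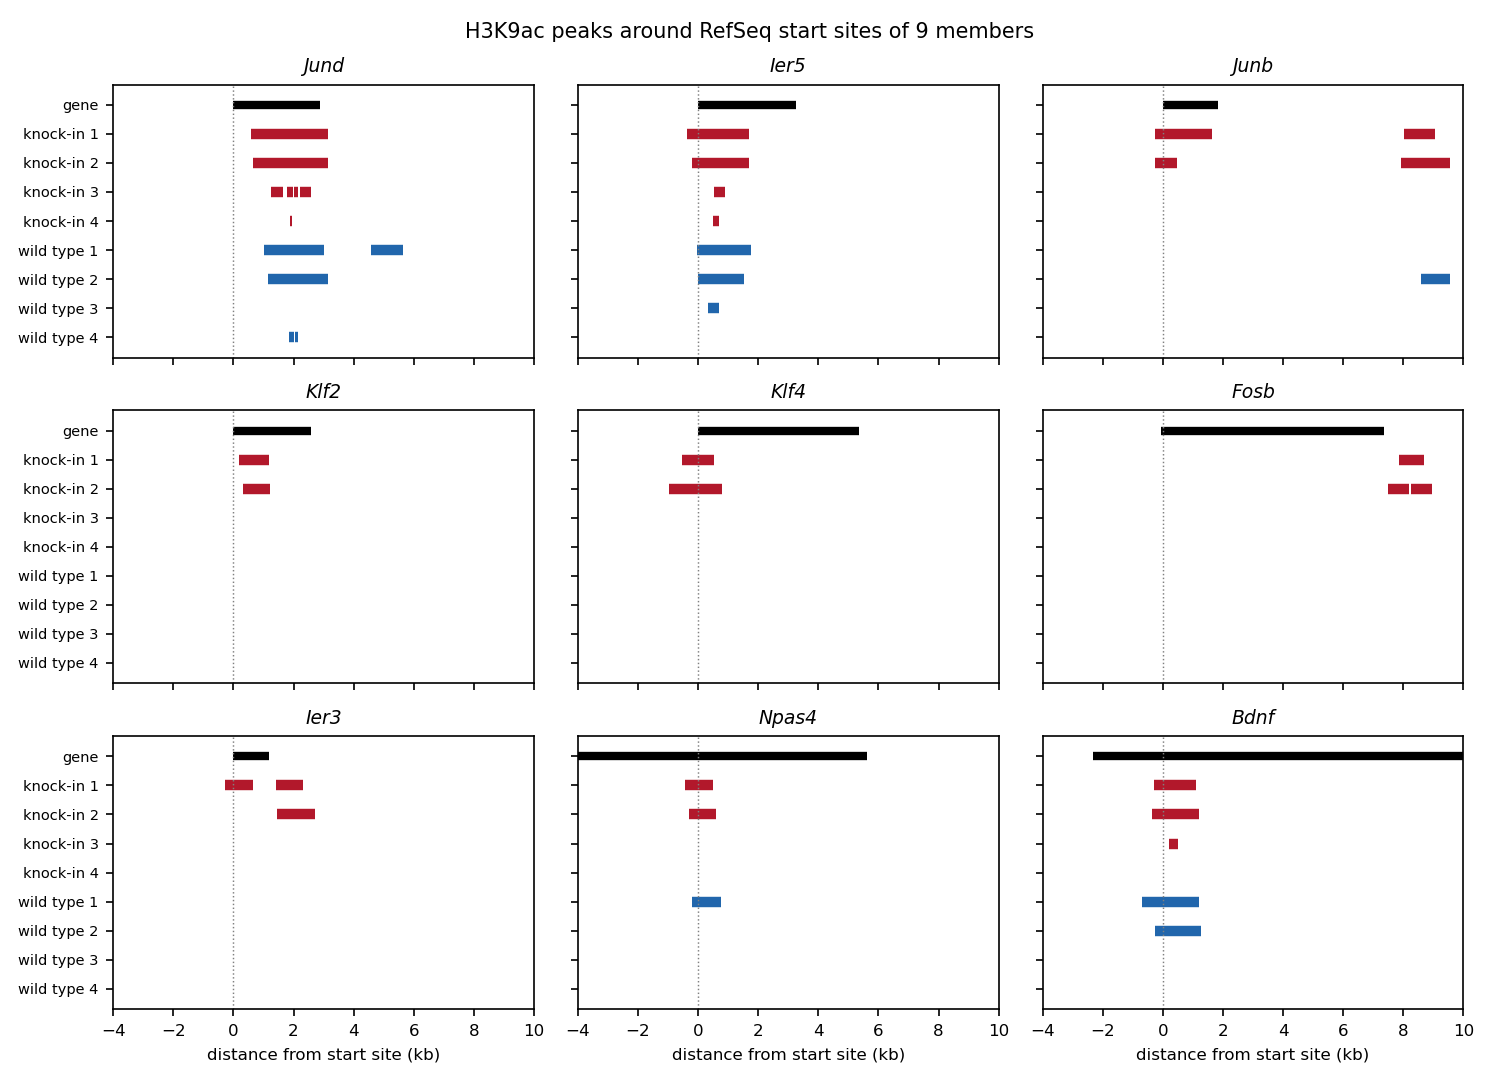
Peaks (bars) of the 8 libraries around a RefSeq start site of 9 members (dotted line, distance in kb, transcription to the right, gene in black). Junb, Klf2, Klf4, Fosb and Ier3 have peaks within 1 kb of a gene end in KI1 and KI2 only. Those of Fosb, and that of Ier3 in KI2, lie downstream of the gene. Jund and Ier5 have peaks within 1 kb of a gene end in both genotypes.

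Among the synaptic effectors, Homer1 and Arc had a peak in all 4 long lists and Bdnf in none. Homer1, a scaffold of the postsynaptic density, had peaks of 1610, 1515 and 202 bp in KI1 to KI3 and of 1676, 1471 and 191 bp in WT1, WT2 and WT4, with overlapping widths. It stood at the 91.9 and 92.1 percentile in KI1 and KI2 and at 96.3 and 93.6 in WT1 and WT2. Arc, which drives AMPA receptor uptake, measured 1529 and 1178 bp against 2070 and 818 bp. Bdnf, a secreted neurotrophin with many alternative first exons, had no peak at its gene ends. At its start site at position 109677032 on chromosome 2, however, peaks of 1397, 1584 and 269 bp were listed in KI1 to KI3 and of 1904 and 1508 bp in WT1 and WT2. A wider Bdnf peak of 2101 bp, over or near 3 further start sites, was listed in KI2 only. Npas4, a neuronal factor induced selectively by calcium entry, likewise had none at its gene ends, and at its internal start site it had 939 and 897 bp in knock-in and 969 bp in WT1. Peaks there stood low in their lists, at the 15.0, 8.06 and 19.5 percentile.

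Of the immediate early response proteins, Ier5, which acts with the heat shock factor HSF1, had a peak of 2077, 1885, 348 and 201 bp in KI1 to KI4 and of 1783, 1555 and 357 bp in WT1 to WT3. The genotypes did not overlap in the long lists. It stood at the 96.3 and 99.0 percentile in knock-in and at 97.4 and 97.5 in wild type. Ier2 had 1276 and 1291 bp against 1097, 1013 and, in WT4, 143 bp. Ier3 (chr17:35821713-35822911), a stress-induced regulator of cell survival, had a peak in both long knock-in lists and in no wild type list. Both had a peak downstream of the gene, of 920 and 1267 bp, and in KI1 a further peak spanned the start site. The downstream peak also reached the window of Flot1. Ier5l had a peak of 1184 bp in KI1 only.

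BTG proteins restrain cell division. Btg1 had 1806, 1835 and 277 bp in KI1 to KI3 and 1477, 1597 and 152 bp in WT1 to WT3, with the long lists apart. It stood at the 96.2, 97.2 and 89.6 percentile in knock-in and at 98.8, 92.0 and 64.0 in wild type. Btg2 was the member with the smallest p above, with a peak of 1298 bp in KI1 and of 1874 and 977 bp in WT1 and WT2.

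The dual specificity phosphatases remove phosphate from ERK, JNK and p38 kinases. Dusp5, a nuclear phosphatase for ERK, had a peak of 2307, 2127 and 346 bp in KI1 to KI3 and of 2227, 1786, 397 and 158 bp in WT1 to WT4. Widths overlapped, and the peak stood at the 96.4 and 98.2 percentile in KI1 and KI2 and at 96.9 and 99.3 in WT1 and WT2. Dusp1 measured 1706, 1571 and 131 bp against 1500, 1492 and 133 bp in replicates 1 to 3, with the long lists apart, and stood lower, at 79.7 and 87.3 against 80.7 and 65.5. Dusp4 measured 2233 and 1314 bp against 2062 and 1891 bp. Dusp6, the cytoplasmic phosphatase for ERK, had a peak of 1147 bp in KI2 only, and in KI1 a peak of 863 bp lay 51 bp outside its window.

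The 5 members with a peak in both long knock-in lists and neither long wild type list were Fosb, Junb, Klf2, Klf4 and Ier3. They are 15.2% of the 33, and 3.37% of all genes had this pattern. No member had the reverse pattern, which 0.178% of all genes had. The long knock-in lists covered more genes to begin with: of the 24 members with a peak in both of them, 5 (20.8%) had none in wild type, against 10.4% of the 7100 genes with a peak in both. Each of the 5 had an unadjusted p of 0.501 and an adjusted p of 1 by the conditional exact test. That test gives the same p to every gene with 2 knock-in and 0 wild type libraries, so choosing this pattern fixed the p. The peaks of the 5 stood between the 0.719 and 52.1 percentile of their lists by score. When the 4 lists were held to the same length, their 7735 strongest peaks, 1 of the 5 was left, Klf4, with 1.76% of all genes. When only the upper 50% of each list by score was kept, 0 were left, with 1.55% of all genes. Without KI2 the pattern held for 9 members, with 7.00% of all genes, since Fos, Maff, Egr3 and Ier5l were listed in KI1 alone. Without KI1, 1 member (Btg2) had the reverse pattern, with 1.17% of all genes.

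Widths of the peak were compared at the 18 members with one in all 4 long lists. As deposited, both knock-in widths exceeded both wild type widths at 12 of the 18, against 36.5% of the 5008 genes with a peak in all 4, and the reverse held at 0, against 4.19%. The lists themselves differed in width, with medians over those genes of 1539 and 1480 bp for KI1 and KI2 against 1402.5 and 1175 bp for WT1 and WT2. After each list was centred on its median, knock-in widths lay above at 4 members (Fosl1, Jun, Egr1 and Egr4; 15.6% of genes) and below at 4 (Klf10, Homer1, Dusp4 and Dusp5; 19.7%). Fosl2, Jund, Nr4a1, Nr4a2, Ier2, Ier5, Btg1 and Dusp1, which were apart as deposited, overlapped between genotypes after centring. In the limma test of the centred log2 widths, 0 of 5008 genes passed after Benjamini-Hochberg adjustment in either direction (0%), with 282 at an unadjusted p under 0.05. The median log2 difference, knock-in minus wild type, was 0.033 over the 18 members, of which 11 were above 0 and 7 below, and -0.014 over all genes tested. Its sign rested on single libraries: without WT1 it was -0.018, with 6 above 0 and 12 below, without KI2 it was -0.026, with 9 and 10 of then 19 members, and without WT2 it was 0.13. Without centring the medians were 0.27 and 0.22.

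**Figure D4:**
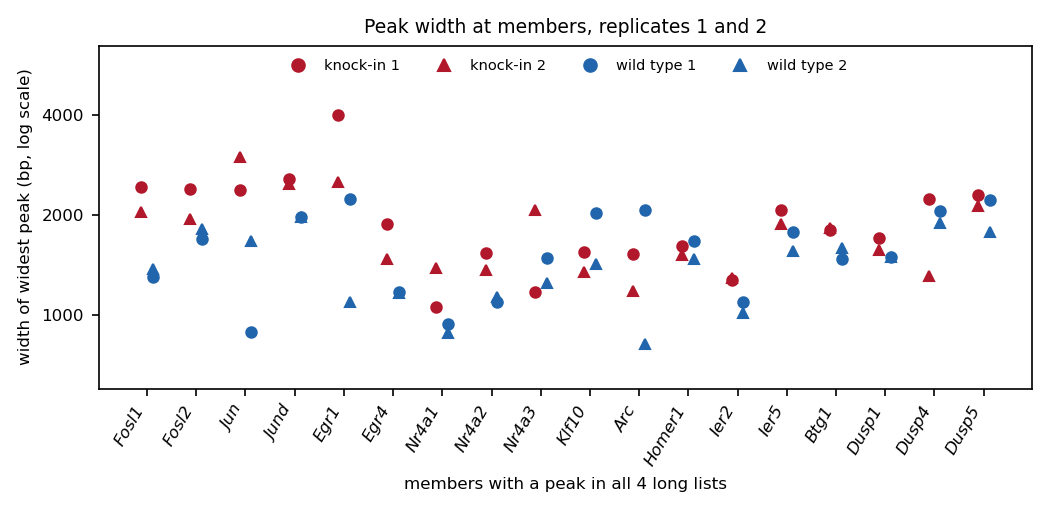
Width of the widest peak (bp, log scale) at the 18 members with a peak in all 4 long lists, by library. Jun and Egr1 have the largest differences between the genotypes' mean log2 widths. The genotypes overlap at Nr4a3, Klf10, Arc, Homer1, Dusp4 and Dusp5.

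The largest of these differences was at Jun, 0.90 ± 0.37 (SE, n = 2 per genotype) on the log2 scale, with an adjusted p of 0.873 by limma. In both WT1 and WT2 the Jun signal was listed as a pair of peaks, and in KI1 and KI2 as a single one. Summed, the peaks measured 1676 and 2971 bp in WT1 and WT2, and the difference of the summed widths was 0.014. Egr1 followed with 0.79 ± 0.33 and Fosl1, at the peak shared with Ccdc85b, with 0.50 ± 0.25, both at an adjusted p of 0.873 by limma. On the other side Klf10 stood at -0.47 ± 0.24 and Dusp4 at -0.44 ± 0.29, likewise at 0.873 by limma. With summed widths Klf10 was at -0.043. Leaving out 1 library at a time moved Jun between 0.31 and 1.49, Egr1 between 0.41 and 1.18, and Dusp4 between -0.79 and -0.083, the last without KI2.

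Many of the members are short genes, and the mark covered a larger share of them than of genes in general. Their median length was 5339 bp, against 17169 bp for all genes, and 23 of the 33 were under 10 kb. Where a member had a peak, the median share of the gene covered was 35.6% and 19.8% in the long knock-in lists and 23.0% and 21.0% in the long wild type lists. Over all genes with a peak it was 3.48%, 3.39%, 3.28% and 2.65%, and over those under 10 kb it was 18.2%, 17.1%, 17.1% and 15.4%. More members under 10 kb had a peak than such genes in general: 21, 18, 13 and 12 of 23, against 26.4%, 24.3%, 20.2% and 16.9%. Jund was covered over 79.7% and 77.0% of its length in KI1 and KI2 and 64.4% and 59.5% in WT1 and WT2, and Ier2 over 83.8% and 84.8% against 72.1% and 66.6%.

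By score the members' median percentile lay below that of all genes with a peak in KI1 and KI2, at 52.1 and 60.3 against 57.5 and 62.2. In WT1 and WT2 it lay above, at 78.6 and 64.7 against 65.7 and 57.4. Fewer members had a peak in the wild type lists, so these medians are over different genes. In the short lists the members were at 84.2 (KI3), 66.2 (KI4), 78.0 (WT3) and 77.5 (WT4), against 63.7, 45.9, 61.0 and 53.0. The member peaks of the short lists overlapped those of the long lists: of 12, 2, 5 and 7 such peaks, all overlapped a peak of KI1 and KI2 and WT1 and WT2, except that 11 of the 12 in KI3 overlapped WT1. Over all gene-end peaks of the short lists the shares were 92.1% to 97.8%.

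Of the genes that lead to induction, the CREB group had a peak throughout the long lists and the other groups in part. Of the 9 CREB family genes and coactivators, 9 had a peak in each of the 4 long lists, and Ep300, an acetyltransferase that CREB recruits, had one in all 8. Of 18 genes from Ras to ERK, 13 and 13 had a peak in the long knock-in lists and 14 and 10 in wild type. Of 11 calcium and cyclic AMP kinases and phosphatases it was 8 in each. Of 4 MEF2 factors it was 1 in each, Mef2d. Of 6 genes for SRF and its partners, 5 and 5 had a peak in KI1 and KI2 against 3 and 3 in WT1 and WT2, with Srf itself and the ternary complex factor Elk3 in KI1 and KI2 only. Of 40 other activity-induced genes it was 26 and 25 against 20 and 18, with Rgs2, which restrains G protein signalling, and Zfp36, which promotes decay of messenger RNA, in KI1 and KI2 only. This pattern held for 4 of the 88 genes in the 6 lists, against 3.37% of all genes. These 4 genes had an unadjusted p of 0.501 and an adjusted p of 1 by the conditional exact test, again fixed by the pattern. Over the 88 genes, 26 had peaks in more libraries of the knock-in and 6 in more of the wild type. A further 34 were equal and 22 had none, and 0 were called. Of all 21887 genes, 4727 (21.6%) had peaks in more knock-in libraries and 1144 (5.23%) in more wild type libraries. A further 3980 were equal and 12036 had none. Genes with none cannot differ, and they make up a larger share of all genes than of the 88.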

How the data were processed

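H3K9ac peak lists of 8 cerebellar libraries were analysed, grouped and numbered by their titles. The submitters' processing notes name Bowtie2 and mm10. MACS in Galaxy made 1 list per library, per the file headers. Neither versions and settings nor an input control are given in these sources. The score that the authors deposited for each peak is on an unstated scale, so it served only as a percentile, the share of a list's peaks with a score at or below it. A start below 0 was set to 0 (15 of 52676 peaks). Deeper sequencing or a stronger precipitation gives a longer list.

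A neighbour's peak can fall in a gene's window, and peaks at internal start sites fall outside it. Gene positions, start sites and promoters came from RefSeq tables of GRCm38.p6. The conditional exact test (Python 3.11.15, scipy 1.17.1) was two-sided and took library detection odds from a Rasch model over all genes with a peak in 1 to 7 libraries. Widths were tested with limma 3.58.1 in R 4.3.3 for genes with a peak in replicates 1 and 2 of both genotypes. The threshold was an adjusted p of 0.05, over all genes tested, and both tests were tested on simulated data. No p is given over the members, which, like the gene lists, were chosen with earlier results of these data known. The text accounts for every member, with values by library for those that differ between genotypes in replicates 1 and 2, those in 5 or more libraries or in none, and the extremes of width and score, and names up to 3 genes per pathway list that differ by 2 or more libraries. Alternatives were other windows, overlaps, score cuts, list lengths and left-out libraries. Windows at every start site and over whole genes were chosen after seeing the data.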

Additional observations from a re-analysis of the deposited data

How the results depend on the processing

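The conditional exact test called 0 genes under every alternative except without WT2, so that leaving out each library gave 0 to 1. The limma width test called 0 to 3 genes when 1 library was left out (3 without KI1 and 1 without KI2, none of them a member) and 0 otherwise; the library left alone in its genotype was then assumed to vary like the others. Members with a peak in both long knock-in lists and neither long wild type list numbered 5, with 3.37% of all genes. They numbered 0 in the upper 50% of each list (1.55% of all genes) and 1 in lists of equal length (1.76%). When 1 library was left out they numbered 5 to 9, with 5.25% to 7.67% of all genes. The reverse count was 0, with 0.178% of all genes. It was 1 in the upper 50% (Dusp4, with 0.169%) and 0 to 1 when 1 library was left out (Btg2, without KI1, with 1.17%). The difference in shares ran from -0.253 to 27.0 points when 1 library was left out. Ier5l turned to -25 points with a 3 kb window and Ier2 to 25 points in the upper 50%. The cause of these changes was not tested. Libraries with the same number were not treated as pairs: the correlation of their deviations was 0.0502, 0.114, 0.136 and 0.405 for numbers 1 to 4. KI2, KI3 and KI4 each correlated best with the same number, a hint from the data and not the design, and KI1 was marginally closer to WT2 (0.0555). With the replicate block, the conditional exact test and the limma width test both called 0 genes, with 50 and 307 at an unadjusted p under 0.05. The share difference fell to 0 for Ier2 and Ier5 with a 500 bp window, Fos and Btg2 with 3 kb, Nr4a2, Ier2 and Dusp5 with an overlap of 200 bp, Nr4a2 in the upper 50%, and Nr4a2 and Btg2 over whole genes. Among members with small width differences, Arc turned from -0.19 to 0.35 without WT1 and Fosl2 from 0.059 to -0.23 with summed widths. No value given for a member passed a test under any alternative. A missing peak in a short list may reflect depth, which is unknown, so it does not show that the mark is absent.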

Other observations

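Several members had peaks outside the gene-end windows, in the gene or within 4 kb of it. There were 75 such peaks at 23 members, of which 62 were in the long lists. Nr4a2, a nuclear receptor that dopaminergic neurons need, had a pair of neighbouring peaks inside the gene in all 4 long lists. The broader of the pair measured 1513 and 1375 bp in knock-in and 1587 and 1540 bp in wild type, and a peak of 151 bp lay within it in WT3. Nr4a3 had a peak upstream of the gene in all 4 long lists, 1381 to 1715 bp away, of 1390 and 1089 bp in knock-in and 1141 and 648 bp in wild type. Dusp5 had a peak inside the gene towards its 3′ end in KI2 and KI4 and WT1, WT2 and WT4, of 787, 126, 1109, 808 and 122 bp. Fosl2 had one 2477 to 2789 bp upstream in both long knock-in lists and in WT1, of 1132, 1306 and 1188 bp. These peaks were chosen for mention after their values were seen, and no test was made on them.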
